A study of Mus musculus with 12 samples.

Results

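The genes described here encode the proteins of the mitochondrial ribosome. Members were the rows of the deposited expression table whose gene is protein-coding and carries a symbol of the form Mrpl or Mrps followed by a number, with pseudogenes left out. This gave 77 of the 18269 genes in the table, 48 with Mrpl names and 29 with Mrps names, out of 78 such genes in the annotation (Mrpl53 was not analysed here). They lie on 17 chromosomes, and 11 of them lie on chromosome 11: Mrpl10, Mrpl12, Mrpl22, Mrpl27, Mrpl38, Mrpl45, Mrpl55, Mrpl58, Mrps7, Mrps23 and Mrps24. The rule used no expression value.

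RNA was sequenced from mouse embryoid bodies of C57BL/6 strain, which are floating clusters of differentiating embryonic stem cells, collected at day 3 and day 5. The floxed groups come from the line 4_1 (genotype Gcn5fx/fx), in which both copies of Gcn5 are flanked by recombination sites and no recombinase is named by the labels. The null groups come from the line 4C2 (genotype Gcn5-/-). Each of the 4 groups holds 3 samples by the labels, while the design text of the series says duplicates. Gcn5, whose gene symbol is Kat2a, acetylates histones as the catalytic subunit of 2 coactivator complexes (SAGA and ATAC), and the study asked how its loss changes expression early in differentiation. Because each genotype is represented by a single line, genotype and line cannot be told apart, and nothing says that samples of a group came from separate cultures, so p-values measure only the spread between these samples, which may be technical.

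Mitochondrial ribosomes make the few proteins encoded by mitochondrial DNA, all of them membrane subunits of the oxidative phosphorylation complexes. Their RNA is made inside the organelle, but every one of their proteins is encoded in the nucleus, made in the cytosol and imported, so that the members must be supplied together from many chromosomes. The large subunit (Mrpl proteins) forms peptide bonds and leads the new chain to a tunnel exit at the inner membrane, and the small subunit (Mrps proteins) holds the messenger RNA and decodes it. Many subunits have a counterpart in the bacterial ribosome, and others exist only in mitochondria. Known transcriptional regulators of these genes include NRF1, the ETS family factor GABP, YY1 and Myc.

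By structure, 30 members belong to the large subunit with a counterpart in bacteria, 20 to the large subunit without one, 17 to the small subunit with a counterpart and 9 to the small subunit without one. Mrps18a and Mrps30 are counted in the large subunit, where their proteins sit despite their names. The related S18 genes are not classed alike: Mrps18a is counted without a bacterial counterpart, and Mrps18b and Mrps18c with one. The counts by class below depend on this choice for Mrps18b, which fell between days in both lines. Mrps36 stands alone, since its protein is a component of the 2-oxoglutarate dehydrogenase complex.

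The floxed libraries held between 23090915 and 29446068 reads and the null libraries between 18022071 and 26803369, and the members took 0.325% to 0.406% of them. All values below are normalised read counts, the authors' read counts divided by 1 size factor per sample. Kat2a, the targeted gene, had 2228 ± 151 in the floxed and 701 ± 122 in the null samples at day 3 (mean ± SD, n = 3 per group) and 2207 ± 165 against 817 ± 67.5 at day 5. Kat2a was lower by the test described next at both days (log2 change -1.68 ± 0.11 SE, limma adjusted p = 1.01e-05, and -1.43 ± 0.11, adjusted p = 1.6e-05), and the samples of the lines did not overlap. The table counts the whole gene, so it does not show which exons the null line lacks.

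Changes were tested with limma on log2(value + 1) over all 12 samples. It covered 17000 genes, those whose mean reached 10 or more in any group. A gene was called at a Benjamini-Hochberg adjusted p under 0.05, two-sided, with the adjustment made over all genes tested. Fold changes are on this scale, ± SE. All 77 members passed the filter on low values. In this bulk RNA, fewer cells of a type and less RNA per cell cannot be told apart.

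All members were detected in every library. Means over the 12 samples ran from 244 for Mrps6 to 2902 for Mrpl45, with a median of 997, and the lowest read count of any member in any library was 162. Counts of different genes can be compared only per length. Divided by kilobases of annotated exon, the highest levels were those of Mrpl28 (1410.0 per kilobase), Mrpl2 (1339) and Mrpl18 (1301), 3 large subunit proteins of which Mrpl18 lies in the central protuberance. The lowest were Mrpl33 (76.6 per kilobase), Mrpl48 (91.7) and Mrpl32 (96.5), against a median of 426. Lengths cover all annotated isoforms, so a gene with a long, little used isoform comes out low, as may be so for Mrpl33 with 7326 annotated exon bases.

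Summed over the 66 members on chromosomes other than 11, the floxed day 3 samples had 75826, 78085 and 70206 and the null day 3 samples 70167, 78474 and 72679. At day 5 the floxed sums were 67181, 64665 and 66829 and the null sums 57146, 63338 and 62422. The lines overlapped at day 3 and did not at day 5, where the null sums were lower, and both lines were lower at day 5 than at day 3 without overlap. As a share of each library's reads, these members took 0.2806% to 0.2926% in floxed and 0.2587% to 0.2882% in null samples at day 5, which overlap, so the separation at day 5 depends on the size factors. At day 3 the shares were 0.2931% to 0.3153% and 0.2886% to 0.3252%, above those of day 5 in each line by as little as 0.2931% against 0.2926% (floxed) and 0.2886% against 0.2882% (null). The 11 members on chromosome 11 summed to 14423, 15543 and 13442 in floxed and 16848, 19533 and 19329 in null samples at day 3, and to 13911, 13476 and 13072 against 14596, 16458 and 16304 at day 5. Here every null sample was above every floxed sample of the same day, also as a share of reads (0.0561% to 0.0628% against 0.0693% to 0.0810% at day 3, and 0.0572% to 0.0594% against 0.0661% to 0.0749% at day 5). Replicate 1 of the null line had the lowest sum of its group at both days, on chromosome 11 and elsewhere.

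**Figure D1:**
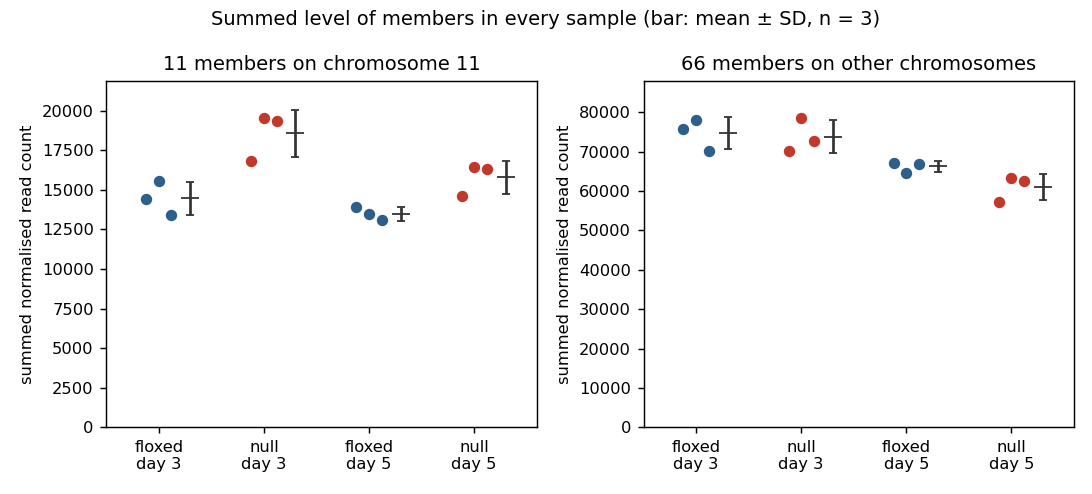
Summed normalised read count of the 11 members on chromosome 11 (left) and the 66 on other chromosomes (right) in each of the 12 samples, by line and day; points are samples, and bars the mean ± SD of 3. On chromosome 11 the null samples lie above the floxed ones at both days, while on the other chromosomes the null samples lie below only at day 5, between 57146 and 63338.

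Because the members must be made together, the sequences in front of them were searched for motifs of the factors named above. RefSeq promoter windows on GRCm38.p6, 250 bases before to 50 bases after a gene's start, matched 68 of the 77 members by symbol. The members had 74 windows, and a symbol with more than 1 kept the window at the lowest coordinate. For a gene on the minus strand this is the start furthest downstream. The letters searched, on both strands, were GCGCANGC for NRF1, CCGGAAG for ETS factors, AAGATGG for YY1 and CACGTG for the E-box bound by Myc and its relatives; the end of the ETS letters and the start of the YY1 letters can be the same bases. NRF1 letters were in 21 of 68 windows (30.9%), against 2706 of the windows of all 27025 symbols and 18.6% of the 11687 coding genes of the table. ETS letters were in 36.8% (9.08% of all, 16.3% of coding genes) and YY1 letters in 19.1% (6.46% and 6.71%). The E-box was in 7.35%, against 7.09% and 9.63%. In all, 47 of the 68 windows held at least 1 of the 4. A match is a description of letters, not a bound site. The median GC content was 58.0% for member windows and 60.7% for windows of coding genes.

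The 120 bases before the start in the kept window are printed for 5 members. They are examples of stretches with and without these letters, and none of the stretches touches an annotated exon. They read in the direction of the gene, and capitals mark the motif letters on either strand. Mrpl45 (chr11:97315596-97315715, plus strand) holds NRF1 letters at 2 places and was called in all 4 comparisons below. Mrpl48 (chr7:100583131-100583250, minus strand) holds ETS letters. This stretch lies inside the annotated gene, whose outermost start is at position 100608301, so it precedes a start further downstream. Mrpl48 fell between days in the null line, a call lost in 6 of the 12 fits that left out 1 library. The call was also lost with TMM scaling, with scaling by total reads (limma adjusted p = 0.254) and with edgeR. Mrpl52 (chr14:54426789-54426908, plus strand) holds ETS and YY1 letters and was called in no comparison, except that it rose between days in the null line with scaling by total reads. Mrpl20 (chr4:155802758-155802877, plus strand) holds an E-box and fell between days in the null line, though not with scaling by total reads (0.0718) or without null day 3 replicate 2 (0.0668) or null day 5 replicate 3 (0.0546). Mrpl42 (chr10:95501950-95502069, minus strand) holds none of the 4 in this stretch, though its whole window has 1 match to the YY1 letters, and fell in both lines.
Mrpl45: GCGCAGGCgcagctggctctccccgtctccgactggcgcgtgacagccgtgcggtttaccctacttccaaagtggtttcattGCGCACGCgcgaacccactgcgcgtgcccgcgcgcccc
Mrpl48: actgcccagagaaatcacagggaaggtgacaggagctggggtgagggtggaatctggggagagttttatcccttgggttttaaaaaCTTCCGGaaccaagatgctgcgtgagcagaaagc
Mrpl52: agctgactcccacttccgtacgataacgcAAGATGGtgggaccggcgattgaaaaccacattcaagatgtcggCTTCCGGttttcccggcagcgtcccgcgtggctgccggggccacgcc
Mrpl20: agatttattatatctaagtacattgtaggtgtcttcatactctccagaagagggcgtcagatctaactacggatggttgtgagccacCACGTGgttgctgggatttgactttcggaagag
Mrpl42: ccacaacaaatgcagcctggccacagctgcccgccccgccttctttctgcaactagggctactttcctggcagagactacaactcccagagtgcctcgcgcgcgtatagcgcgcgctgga

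At day 3, 4 members were higher and 1 was lower in the null than in the floxed samples. The 4 higher members, Mrpl38, Mrpl45, Mrps24 and Mrpl22, all lie on chromosome 11, and the 1 lower member, Mrpl50, on chromosome 4. Over all genes tested, 4.09% were called higher and 2.03% lower, so 4 of 77 and 1 of 77 are close to what all genes show. On chromosome 11 alone, 30.3% of the genes tested were called higher, next to 4 of the 11 members. Off it, 1.86% of genes were called higher and 2.18% lower, next to 0 and 1 of the 66 members. The median log2 change was 0.35 over the members on chromosome 11, all 11 above 0, and 0.36 over all genes of that chromosome, while over the other members it was -0.03, with 26 of 66 above 0, beside -0.02 for all genes off chromosome 11. The cause of the chromosome-wide difference was not tested.

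Mrpl38, a mitochondria-specific protein of the central protuberance of the large subunit, had values of 1619, 1678 and 1437 in floxed and 2279, 2273 and 2606 in null samples at day 3. It was 1.51-fold higher (log2 change 0.60 ± 0.08, limma adjusted p = 0.00218). Mrpl45, a protein of the tunnel exit that faces the inner membrane, had 2939, 2814 and 2544 against 3904, 3640.1 and 3936 (0.47 ± 0.07, adjusted p = 0.00315). In both genes each null sample was above each floxed sample, and both calls held in all 12 fits that left out 1 library.

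Mrps24 of the small subunit had 891, 1008 and 789 in floxed and 1084, 1232 and 1313 in null samples (0.44 ± 0.10, limma adjusted p = 0.0275). Mrpl22, a tunnel protein with a counterpart in bacteria, had 696, 752 and 610.4 against 847, 947 and 884 (0.38 ± 0.10, adjusted p = 0.0373). The samples did not overlap in either gene. Leaving out floxed day 3 replicate 1 (adjusted p = 0.0853) or 3 (0.0876), or null day 3 replicate 2 (0.0711) or 3 (0.109), ended the call of Mrps24. The call of Mrpl22 was lost without floxed day 3 replicate 1 (0.0952) or 3 (0.117), without null day 3 replicate 1 (0.0557), 2 (0.108) or 3 (0.0953), and without null day 5 replicate 2 (0.0558). With the replicate number as a block, 8 members were higher in place of 4.

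Mrpl10 and Mrps7, also on chromosome 11, came just short of the threshold. Mrpl10, whose protein anchors the stalk that recruits translation factors, had 1637, 1863 and 1659.7 in floxed and 1871, 2244 and 2313 in null samples, without overlap (0.31 ± 0.09, limma adjusted p = 0.0502). Mrps7 had 1439.5, 1643 and 1488 against 1639, 2079 and 2141, with overlap (0.35 ± 0.10, adjusted p = 0.0530). Both were called with scaling by total reads (0.0450 and 0.0492). After the median change of all tested chromosome 11 genes had been subtracted, none of these 6 was called. Mrpl38 then had 0.24 (adjusted p = 0.104), Mrpl45 0.11, Mrps24 0.08 and Mrpl22 0.02.

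Mrpl12, the stalk protein that also binds the mitochondrial RNA polymerase, was the member of chromosome 11 with the smallest change at day 3. Its values were 2116, 2383 and 1883 in floxed and 1780.4, 2789 and 2113 in null samples, which overlap (0.05 ± 0.14, limma adjusted p = 0.884). Null replicate 2 was the highest of all 12 samples and null replicate 1 the lowest of day 3. At day 5, the floxed samples had 1880.1, 1807 and 1649.9 and the null samples 1603, 2018 and 1811 (0.02 ± 0.14, adjusted p = 0.931). Its stalk neighbour Mrpl11 on chromosome 19 had 1808, 1973 and 1569.9 in floxed and 1496, 1914 and 1566 in null samples at day 3 (-0.11 ± 0.11, adjusted p = 0.619). With group means removed, the members whose values followed Mrpl12 most closely over the 12 samples were Mrpl16 (r = 0.94), Mrps23 (0.94) and Mrpl11 (0.93). These points share libraries and size factors, and the correlation is a description.

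Mrpl50, a mitochondria-specific large subunit protein, had 1517, 1359.9 and 1331 in floxed and 1113, 1219.6 and 1089 in null samples at day 3. Every null sample was lower, and it fell by 0.30 on the log2 scale (-0.30 ± 0.08, limma adjusted p = 0.0451). That call at day 3 was lost in 10 of the 12 fits that left out 1 library, all except those without null day 3 replicate 2 and null day 5 replicate 1, with adjusted p from 0.0508 (without floxed day 5 replicate 1) to 0.174 (without floxed day 3 replicate 1). It was also lost with scaling by total reads (0.0522) and when chromosome 11 was left out of the fit (0.0681) or centred (0.0660).

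The members off chromosome 11 next in order of p at day 3 were not called. Mrpl1 had 1076, 1186 and 1025 in floxed and 1240.3, 1367 and 1225 in null samples, without overlap (0.22 ± 0.08, limma adjusted p = 0.126). Mrps27, a mitochondria-specific small subunit protein, had 1533, 1544 and 1350.4 against 1264, 1351 and 1226 (-0.20 ± 0.08, adjusted p = 0.138). Mrps2, Mrpl57, Mrps30, Mrpl2 and Mrpl24 followed, with log2 changes of -0.18 to 0.24 and adjusted p from 0.151 to 0.233. At an unadjusted p under 0.05, 16 of the 77 members would be counted, 9 of them on chromosome 11, beside 22.6% of all genes and 56.5% of those on chromosome 11.

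**Figure D2:**
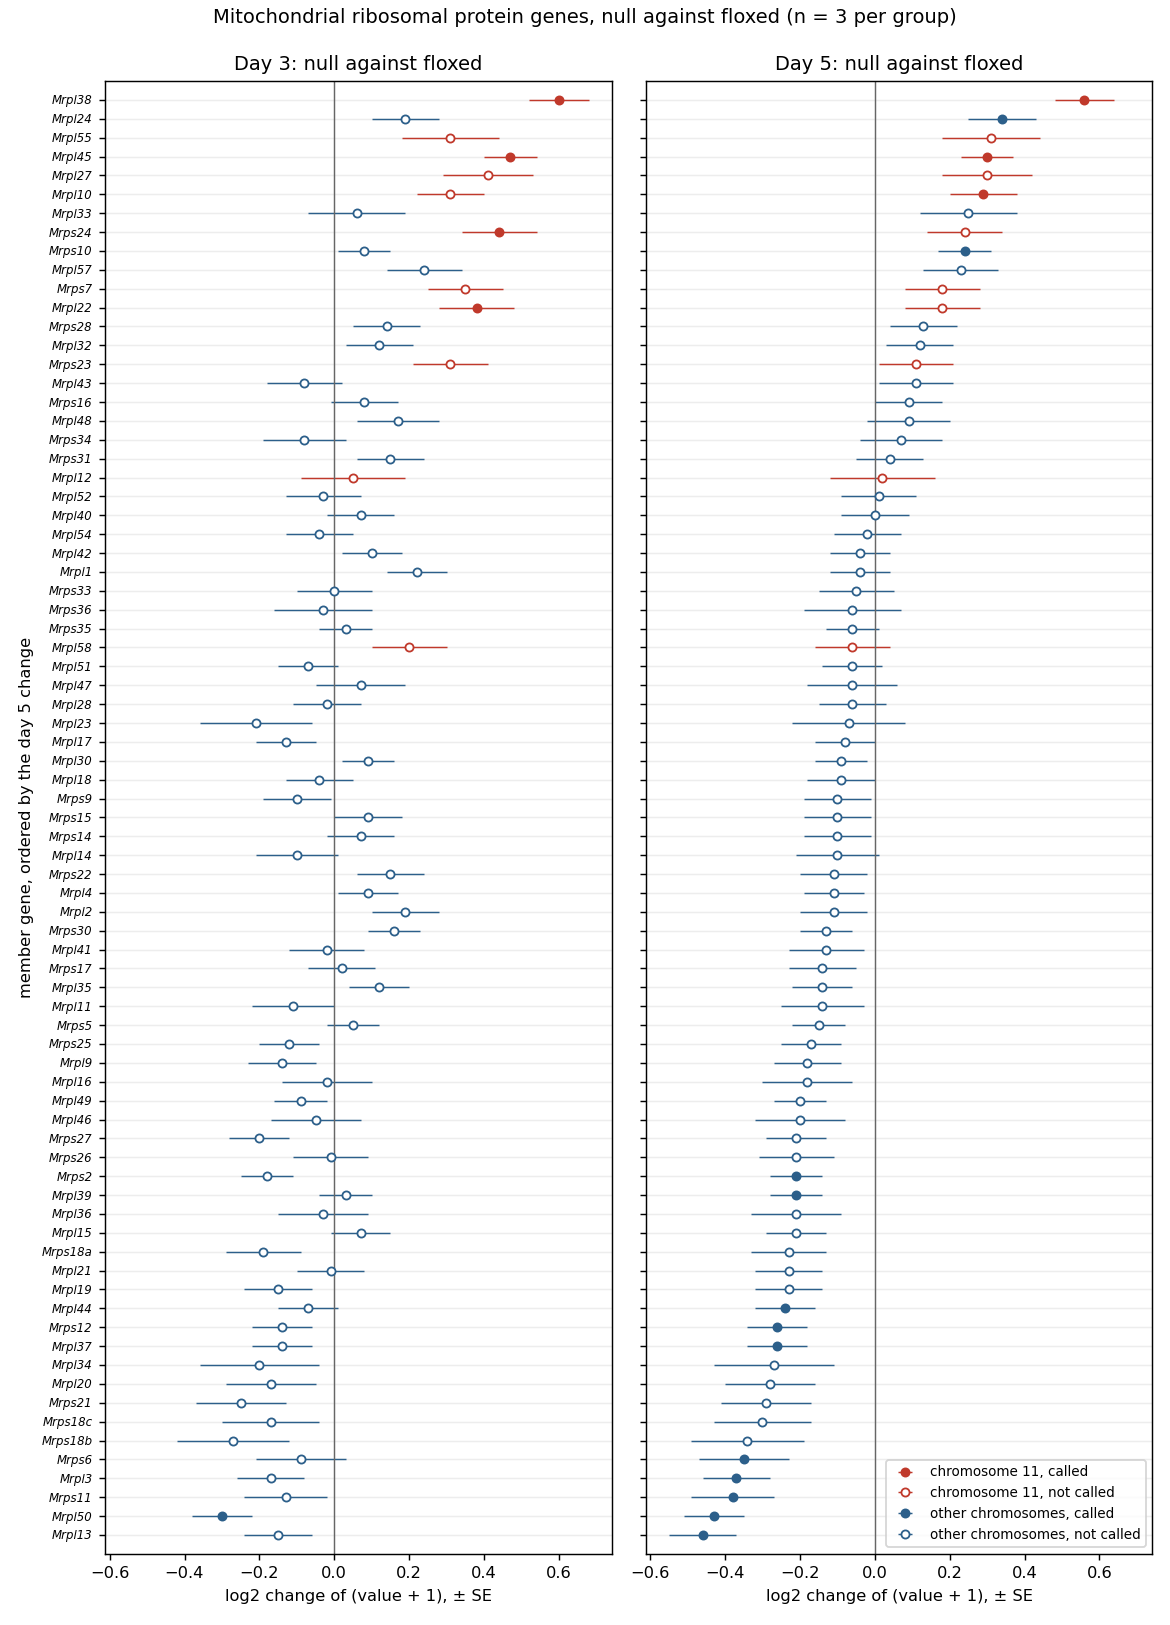
Log2 change of each of the 77 members between null and floxed samples at day 3 (left) and day 5 (right), with limma SE as bars, ordered by the change at day 5; red marks chromosome 11, and filled points are called. Mrpl38 is at the top at both days (0.60 and 0.56), and most members of other chromosomes lie left of 0 at day 5, down to -0.46 for Mrpl13.

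At day 5, 5 members were higher and 10 lower in the null samples. All 10 lower members lie off chromosome 11: Mrpl3, Mrpl13, Mrpl37, Mrpl39, Mrpl44, Mrpl50, Mrps2, Mrps6, Mrps11 and Mrps12. Of the higher ones, Mrpl10, Mrpl38 and Mrpl45 lie on chromosome 11, and Mrpl24 and Mrps10 do not. Over all genes tested, 13.0% were called higher and 13.5% lower, and among genes whose mean reached 50 in any group, a level that every member reaches, 17.1% were lower. The members' 13.0% lower is therefore no larger than the background. Off chromosome 11 it was 10 of 66 members lower (15.2%) beside 14.4% of genes, and 2 of 66 higher beside 10.6%; on chromosome 11 it was 3 of 11 higher beside 41.3% of genes. The median log2 change off chromosome 11 was -0.12, with 53 of 66 members below 0, beside -0.04 for all genes there, and on it 0.24 beside 0.33.

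Mrpl13, a large subunit protein with a counterpart in bacteria, had 1347, 1305 and 1375 in floxed and 937, 1107 and 902 in null samples at day 5. It was 1.37-fold lower (-0.46 ± 0.09, limma adjusted p = 0.00307). Mrpl50 had 1382, 1249 and 1275 against 928, 1016 and 964 (-0.43 ± 0.08, adjusted p = 0.00255). Mrpl3, which in bacteria reaches toward the site of peptide bond formation, had 1758, 1507 and 1685 against 1238, 1359.6 and 1232 (-0.37 ± 0.09, adjusted p = 0.0110). None of the 3 overlapped between the lines, and these 3 calls held in all 12 fits that left out 1 library.

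The 4 lower small subunit members all have counterparts in bacteria. Mrps11 had 601, 544 and 624 in floxed and 463, 456 and 439 in null samples (-0.38 ± 0.11, limma adjusted p = 0.0238). Mrps12, a protein of the decoding centre, had 668, 631 and 663 against 557, 532 and 545 (-0.26 ± 0.08, adjusted p = 0.0339). Mrps6, the member with the lowest mean, had 326, 277 and 307 against 219, 264 and 229 (-0.35 ± 0.12, adjusted p = 0.0396). Groups did not overlap in any of these, nor in Mrps2, which had 1361, 1285 and 1316 against 1181, 1110.3 and 1136 (-0.21 ± 0.07, adjusted p = 0.0456).

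Those 4 calls at day 5 depended on single libraries. Mrps11 was not called without floxed day 5 replicate 1 (0.0677) or 3 (0.0791) or null day 5 replicate 2 (0.0570) or 3 (0.0703). Mrps12 was not called without floxed day 5 replicate 1 or 3 or any 1 null day 5 library (adjusted p 0.0548 to 0.0945). Mrps6 was not called without floxed day 3 replicate 1 or 2, floxed day 5 replicate 1 or 3, or null day 5 replicate 1 or 3 (0.0530 to 0.133). Mrps2 was not called in 10 of the 12 fits, all except those without null day 3 replicate 1 or 2 (0.0523 to 0.131).

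The other 3 lower members are large subunit proteins found only in mitochondria, and Mrpl39 and Mrpl44 lie at the tunnel exit. Mrpl37 had 1038, 1067 and 1048 in floxed and 810.4, 904 and 927 in null samples (-0.26 ± 0.08, limma adjusted p = 0.0357). Mrpl39 had 1365, 1392 and 1343 against 1107, 1239.6 and 1191 (-0.21 ± 0.07, adjusted p = 0.0381), and Mrpl44 had 1088, 986 and 1000.4 against 827, 960.0 and 825 (-0.24 ± 0.08, adjusted p = 0.0485). Groups did not overlap. Mrpl37 was not called without any 1 floxed day 5 library or null day 5 replicate 1 or 2 (0.0621 to 0.122). Mrpl39 was not called without floxed day 3 replicate 1, any 1 floxed day 5 library, or null day 5 replicate 1 or 3 (0.0518 to 0.123), and Mrpl44 was not called in 10 fits, all except those without null day 3 replicate 2 or null day 5 replicate 2 (0.0539 to 0.160). In all, the count of 10 lower members fell to 3 without floxed day 5 replicate 1 or 3, to 4 without null day 5 replicate 1, to 5 without null day 5 replicate 3, and to 6 without null day 5 replicate 2 or floxed day 3 replicate 1. It was 4 with upper-quartile scaling, 6 with edgeR and 15 with the replicate block. With scaling by total reads it was 3 (Mrpl3, Mrpl13 and Mrpl50), beside 8.80% of all genes, and 9 members were higher, beside 16.4%.

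Among the higher members at day 5, Mrpl38 had 1330.3, 1319 and 1252 in floxed and 1795, 1873 and 2077 in null samples (0.56 ± 0.08, limma adjusted p = 0.000764). Mrpl45 had 2425, 2183 and 2150.1 against 2676, 2824 and 2783 (0.30 ± 0.07, adjusted p = 0.0107). Mrpl10 had 1693, 1748 and 1622 against 1969, 2108 and 2115 (0.29 ± 0.09, adjusted p = 0.0262). The lines did not overlap in any of these, and the first 2 calls held in all 12 fits that left out 1 library, while Mrpl10 was not called without floxed day 5 replicate 1 or 3 or null day 5 replicate 2 or 3 (0.0614 to 0.0816). Relative to the median of chromosome 11, Mrpl38 was still called, and Mrpl45 and Mrpl10 had changes of -0.04 each and were not.

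Mrpl24, a tunnel exit protein on chromosome 3, had 1420.2, 1449 and 1459.6 in floxed and 1585, 1873 and 2055 in null samples (0.34 ± 0.09, limma adjusted p = 0.0150). Mrps10, on chromosome 17, had 689.8, 723 and 742 against 823, 825 and 902 (0.24 ± 0.07, adjusted p = 0.0287). These were the 2 members off chromosome 11 in which the null samples were higher by the test, without overlap. The call of Mrpl24 was lost without null day 5 replicate 3 (0.0645). The call of Mrps10 was lost without that library (0.108) and without floxed day 5 replicate 1 (0.0949) or 2 (0.0558), and with the replicate block plus a GC and length correction (0.0516). The count of 5 higher members was 3 without floxed day 5 replicate 1 and 2 without null day 5 replicate 3.

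Mrpl27, Mrpl55 and Mrps24 on chromosome 11 were not called at day 5, with log2 changes of 0.24 to 0.31 and adjusted p of 0.0819 to 0.100, though with scaling by total reads they were. The proteins named S18 come from 3 genes. Mrps18a, in the large subunit, Mrps18b and Mrps18c had log2 changes at day 5 of -0.23 ± 0.10, -0.34 ± 0.15 and -0.30 ± 0.13 (limma adjusted p = 0.112, 0.113 and 0.101). In each the null samples lay below the floxed ones without overlap, though none passed. Mrps36 changed by -0.03 ± 0.13 at day 3 and -0.06 ± 0.13 at day 5, with overlapping samples. Mrpl58, a peptidyl-tRNA hydrolase that frees stalled ribosomes, had 0.20 ± 0.10 (adjusted p = 0.238) and -0.06 ± 0.10 (0.714), and it was the 1 member on chromosome 11 with a change below 0 at day 5.

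The genotype changes at the 2 days come from separate samples. Over the 77 members they correlated at r = 0.813 and over the 66 off chromosome 11 at 0.668, as a description across genes, which are not independent replicates. In 64 of 77 members the change at day 5 was below that at day 3.

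**Figure D3:**
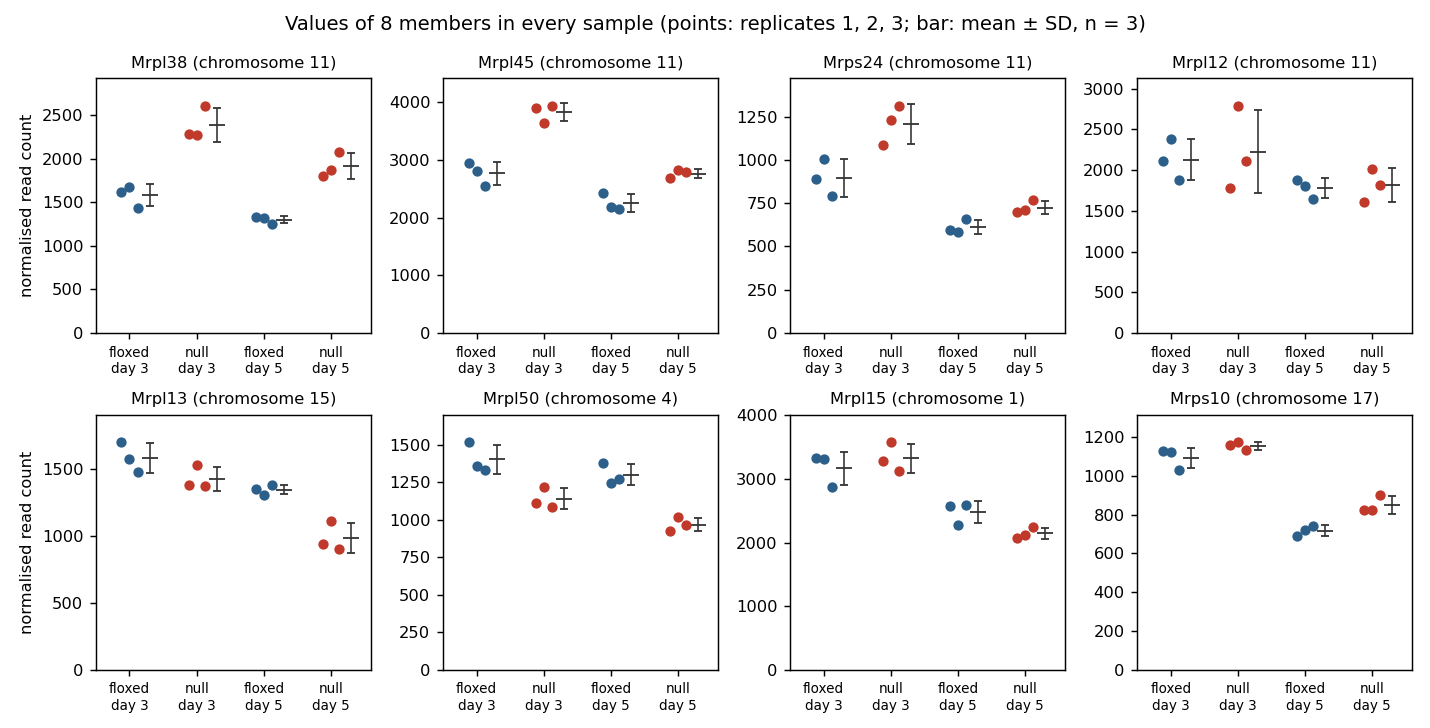
Normalised read count of 8 members in each of the 12 samples, with the mean ± SD of 3 beside the points; each axis starts at 0. In Mrpl38 and Mrpl45 the null samples (red) lie above the floxed ones (blue) at both days, in Mrpl13 they lie apart only at day 5, and in Mrpl12 null day 3 replicate 2 reaches 2789.

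Between day 3 and day 5, more members fell than rose in both lines. In the floxed line 21 fell and 3 rose, and in the null line 41 fell and 0 rose. Over all genes tested, 19.2% fell and 22.5% rose in the floxed line, and 21.9% fell and 22.6% rose in the null line; among genes whose mean reached 50, 21.4% and 25.0% fell. The members' shares falling were 27.3% and 53.2%, and those rising 3.90% and 0%. These counts depend on the scaling. With each library scaled by its total reads, which moved the median change of all genes to 0.08 in the floxed and 0.14 in the null line, 15 members fell and 4 rose in the floxed line and 16 fell and 5 rose in the null line. All 15 and all 16 are among the 21 and the 41, and of all genes 15.7% and 14.9% then fell and 26.5% and 31.4% rose. The median member change was then -0.06 and -0.12. With the authors' size factors, the median log2 change was -0.13 in the floxed and -0.26 in the null line, beside 0.00 for all genes in each. By class, the null line had lower calls in 15 of 30 large subunit members with a bacterial counterpart, 10 of 20 without, 9 of 17 small subunit members with a counterpart and 7 of 9 without; in the floxed line the counts were 5, 7, 6 and 3.

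In all, 20 members fell in both lines. Mrps10 fell most in the floxed line by p, from 1127, 1121 and 1032 at day 3 to 689.8, 723 and 742 at day 5 (-0.60 ± 0.07, limma adjusted p = 4.14e-05), and in the null line from 1161, 1173 and 1134 to 823, 825 and 902 (-0.44 ± 0.07, adjusted p = 0.000390). Mrps24 had the largest fall of any member in the null line, from 1084, 1232 and 1313 to 699, 709.5 and 768 (-0.73 ± 0.10, adjusted p = 0.000126), and fell in the floxed line from 891, 1008 and 789 to 597, 584 and 656 (-0.54 ± 0.10, adjusted p = 0.00111). The days did not overlap in either gene or line.

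Mrpl15, which has a bacterial counterpart, had the smallest p in the null line. It fell there from 3277, 3575 and 3119 to 2069.5, 2123 and 2238 (-0.63 ± 0.08, limma adjusted p = 6.73e-05), and in the floxed line from 3323, 3314 and 2868 to 2579, 2278 and 2584 (-0.35 ± 0.08, adjusted p = 0.00383). Mrpl42, whose sequence is printed above, fell from 1777, 1842 and 1731 to 1109, 1279 and 1299.6 in the null line (-0.54 ± 0.08, adjusted p = 0.000175) and from 1735, 1745 and 1529 to 1237, 1261 and 1297 in the floxed line (-0.40 ± 0.08, adjusted p = 0.00154). Again no day 5 sample reached a day 3 sample of its line.

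Mrpl45 fell in the null line from 3904, 3640.1 and 3936 to 2676, 2824 and 2783 (-0.47 ± 0.07, limma adjusted p = 0.000241) and by 0.30 in the floxed line (-0.30 ± 0.07, adjusted p = 0.00560). Mrpl4, whose bacterial counterpart lines the tunnel, fell in the null line from 1117, 1228 and 1188 to 816, 841 and 865 (-0.49 ± 0.08, adjusted p = 0.000281) and in the floxed line from 1127, 1123 and 1074 to 874, 867 and 992 (-0.28 ± 0.08, adjusted p = 0.00942). Mrps27 and Mrps34, both specific to mitochondria, fell by 0.40 and 0.55 in the floxed line (adjusted p = 0.00110 and 0.00153) and by 0.41 and 0.40 in the null line (0.000875 and 0.0101). The calls of these members and of Mrps10, Mrps24, Mrpl15 and Mrpl42, in both lines, held in all 12 fits that left out 1 library, and with scaling by total reads apart from Mrps34 in the null line (0.0619).

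The 3 members that rose, in the floxed line, were Mrpl58, Mrps23 and Mrps6. Mrpl58 had 846, 894 and 809 at day 3 and 1204, 1169.7 and 1056 at day 5 (0.43 ± 0.10, limma adjusted p = 0.00329). Mrps6 had 233, 225 and 214 and then 326, 277 and 307 (0.43 ± 0.12, adjusted p = 0.00933), and Mrps23 1009.7, 1084 and 936 and then 1243, 1281 and 1259.7 (0.32 ± 0.10, adjusted p = 0.0219). The days did not overlap. In the null line Mrpl58, Mrps6 and Mrps23 had log2 changes of 0.17, 0.17 and 0.12 and were not called, though with scaling by total reads they were. Without floxed day 3 replicate 1 or 3 or floxed day 5 replicate 2, Mrps23 was not called in the floxed line either (0.0574, 0.0753 and 0.0598).

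A further 21 members fell by the test in the null line without being called in the floxed line, among them Mrpl1, Mrpl2, Mrpl13, Mrpl48, Mrpl50, Mrps12 and Mrps30. With scaling by total reads, most of the 21 were not called, and only Mrpl1, Mrpl13, Mrpl21, Mrpl35 and Mrps30 were. A call in 1 line alone does not show that the lines differ. The test of the difference itself, the genotype by day interaction, called 0 of 77 members by limma, as it did by edgeR and by DESeq2. Over all genes it called 0.476%. At an unadjusted p under 0.05, 7 members would be counted, beside 14.2% of all genes. Over all genes the median interaction was -0.01, with 47.8% above 0, and scaling by total reads moved that median to 0.05. Over the members the median was -0.11, with 64 of 77 below 0 and 13 above. Those with the smallest p were Mrps30 (-0.29 ± 0.10, adjusted p = 0.223), Mrpl39 (-0.24 ± 0.10, 0.291), Mrpl13 (-0.31 ± 0.13, 0.295), Mrpl15 (-0.28 ± 0.12, 0.298) and Mrpl2 (-0.29 ± 0.12, 0.304). Their courses differ. Mrps30 had 1397, 1393 and 1292 at day 3 and 1322, 1339.8 and 1281 at day 5 in the floxed line, and 1526, 1548 and 1497 and then 1095, 1284 and 1230.1 in the null line. The log2 changes between days in the floxed and null line were 0.16 and -0.08 for Mrpl39, -0.23 and -0.54 for Mrpl13, and -0.35 and -0.63 for Mrpl15. Day changes in the 2 lines, which share no sample, correlated at r = 0.817 over the members, again as a description across genes, and had the same sign in 65.

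Of the day calls, 9 of 24 in the floxed and 16 of 41 in the null line were lost in at least 1 fit that left out 1 library. The count of falls was 13 without floxed day 3 replicate 2 in the floxed line and 27 without null day 3 replicate 2 in the null line. Mrpl12 had log2 changes of -0.25 and -0.28 in the floxed and null line (limma adjusted p = 0.178 and 0.130) and was not called.

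**Figure D4:**
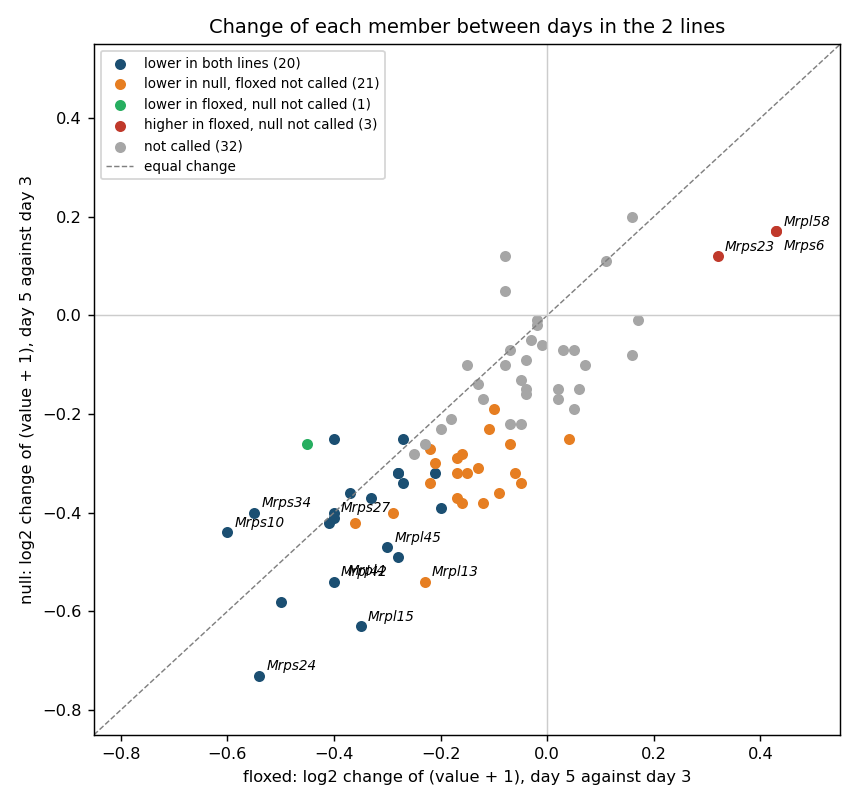
Log2 change of each of the 77 members from day 3 to day 5 in the floxed line (horizontal) and the null line (vertical), coloured by the calls in each line; the dashed line marks equal change. Most points lie below and left of 0, 64 lie below the dashed line, and Mrps24 is the lowest at -0.73 in the null line (Mrpl58 and Mrps6 lie on the same point).

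Cell type markers moved with the day. Over 9 markers of undifferentiated embryonic stem cells, all of them above 0 in each library, the summed value ran from 16200.4 to 22454 in floxed and 13276 to 18800.3 in null samples at day 3, and from 9195 to 14052 and 3747 to 7894 at day 5. By limma, 5 of these 9 were lower in the null samples at day 5 and 0 at day 3. Of the fibroblast markers, 2 of 11 were higher in the null samples at day 3 and 1 at day 5. Of the extraembryonic endoderm markers, 1 of 12 was lower at day 5. Over all genes tested, 4.09% were higher at day 3, and 13.0% higher and 13.5% lower at day 5. From day 3 to day 5, 5 of the 9 stem cell markers rose and 3 fell in the floxed line, and 4 fell and 1 rose in the null line. Of all genes tested, 22.5% rose and 19.2% fell in the floxed line, and 22.6% rose and 21.9% fell in the null line. Over 12 markers of extraembryonic endoderm, of which Apoa4 was at 0 in some libraries, the sums went from 748 to 2797 (floxed) and 1887 to 2038 (null) at day 3 up to 3934 to 13527 and 3364 to 8292 at day 5, and 12 and 10 of them rose. Of 14 fibroblast markers, 12 were in the table, with sums of 1135 to 1599.8 at day 3 and 2315 to 4369.6 at day 5, and 7 and 6 of the 11 tested rose; Postn was at 0 in some libraries. Of 6 blood markers, 4 were in the table, with the globin genes Hbb-bh1 and Hba-x at 0 in some libraries, and summed to 13.9 to 22.7 at day 3 and 45.2 to 130.5 at day 5. The part of these shifts in the members' falls was not tested.

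The rest of the mitochondrial translation system was read from lists of other genes. Beside the day counts given for them, 19.2% of all genes tested fell and 22.5% rose in the floxed line. In the null line 21.9% fell and 22.6% rose. All 5 mitochondrial ribosomal proteins with other names (Dap3, Ptcd3, Chchd1, Aurkaip1 and Gadd45gip1) fell between days in the floxed line and 4 of them in the null line. Dap3, a small subunit protein that binds GTP, fell by 0.31 and 0.44 (limma adjusted p = 0.00209 and 0.000191). Between the lines, 0 of the 5 were called at day 3, and 1 was lower at day 5, Ptcd3, a small subunit protein with RNA-binding repeats (-0.36 ± 0.09, adjusted p = 0.0111). In the floxed line the calls of Ptcd3 and Gadd45gip1 were lost without floxed day 3 replicate 1 (0.0627 and 0.0866) or floxed day 5 replicate 2 (0.0557 and 0.136), and that of Gadd45gip1 also without floxed day 3 replicate 2 (0.0895) or floxed day 5 replicate 1 (0.103) and with scaling by total reads (0.0873).

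Of 16 translation factors tested, 5 fell and 1 rose in the floxed and 8 fell and 1 rose in the null line. Lrpprc, which stabilises mitochondrial messenger RNA, fell by 0.46 and 0.72 (limma adjusted p = 0.000442 and 1.75e-05), and the elongation factor Gfm1 fell by 0.44 and 0.47 (0.000999 and 0.000584). Of 25 genes of ribosome assembly and rRNA modification, 6 (24.0%) and 9 (36.0%) fell and 0 rose. The GTPases Mtg2 and Noa1 fell in both lines, by 0.83 and 0.75 for Mtg2 and 0.29 and 0.68 for Noa1. Of 20 mitochondrial aminoacyl-tRNA synthetase genes, 3 (15.0%) and 6 (30.0%) fell and 2 and 3 rose. Of 12 genes that maintain and transcribe mitochondrial DNA, 1 (8.33%) and 3 (25.0%) fell and 3 and 1 rose. The 15 mitochondrially encoded genes were not analysed here.

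At day 3, 4 of the 7 genes of these lists on chromosome 11 were higher in the null samples: the initiation factor Mtif2, Taco1, Tefm and Polg2. Of all genes tested on that chromosome, 30.3% were higher. Mtg2, which lies elsewhere, was lower, as the 1 such gene of the 88 on the lists, beside 2.03% of all genes. Mtif2 changed by 0.56 ± 0.08 (limma adjusted p = 0.00290) and was called in all 12 fits that left out 1 library. Taco1, Tefm, Polg2 and Mtg2 were not called without floxed day 3 replicate 1 (adjusted p 0.0622 to 0.143), and each was also lost without 2 to 6 other libraries. Relative to the median of chromosome 11, Mtif2 changed by 0.20 (0.231).

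At day 5, 6 of the 88 genes on these lists, regulators included, were higher and 18 were lower, beside 13.0% and 13.5% of all genes. Of the 7 list genes on chromosome 11, 5 were higher and 0 lower, beside 41.3% of all genes there that were higher. With scaling by total reads, Tufm, Lrpprc, Aars2, Sars2, Mtg2, Rpusd4, Noa1, Tfam, Gabpa and Gabpb1 were not called lower (limma adjusted p 0.0546 to 0.111). Each of these calls was also lost in 2 to 4 of the 12 fits that left out 1 library. The smallest p values per list were those of Mtif2 (0.55 ± 0.08, limma adjusted p = 0.000772), the cysteine tRNA synthetase Cars2 (-0.50 ± 0.11, 0.00666), the assembly factor Malsu1 (0.36 ± 0.08, 0.00722) and Polg2 (0.54 ± 0.14, 0.0143). The call of Polg2 was lost without floxed day 5 replicate 1 (0.0534) or null day 5 replicate 3 (0.0628), and those of the others held. Relative to the median of chromosome 11, neither Mtif2 nor Polg2 was called (0.0848 and 0.315).

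Among the 10 regulators of mitochondrial biogenesis, 0 were called at day 3 and 5 were lower in the null samples at day 5: Myc, Nrf1 and the GABP subunits Gabpa, Gabpb1 and Gabpb2. Over all genes tested, 2.03% were lower at day 3 and 13.5% at day 5. Myc, a transcription factor of growth genes, had 172 ± 31.6 in floxed and 113 ± 28.7 in null samples at day 3 (-0.62 ± 0.30, limma adjusted p = 0.240) and 376 ± 109 against 112 ± 39.8 at day 5 (-1.76 ± 0.30, adjusted p = 0.00140). Between days it rose in the floxed line (1.10 ± 0.30, adjusted p = 0.00988). Its part in the members' levels was not tested. Nrf1 changed by -0.31 ± 0.07 (0.00604) and Gabpb2 by -0.36 ± 0.07 (0.00214) at day 5. The calls of Myc, Nrf1 and Gabpb2 held in all 12 fits that left out 1 library, that of Gabpa was lost without floxed day 5 replicate 1 (0.0667) or null day 5 replicate 3 (0.0512), and that of Gabpb1 without null day 5 replicate 2 (0.0512) or floxed day 5 replicate 3 (0.0649). With scaling by total reads, Gabpa (0.0617) and Gabpb1 (0.0813) were not called at day 5. Between days, 2 of the 10 regulators fell and 2 rose in the floxed line, and 6 fell and 1 rose in the null line. Of all genes tested, 19.2% fell and 22.5% rose in the floxed line, and 21.9% fell and 22.6% rose in the null line. The falls of Gabpa in the floxed line (limma adjusted p = 0.0952) and Nrf1 in the null line (0.137) were not called with scaling by total reads. Of the 34 members with a RefSeq window that fell between days in the null line, 8 held NRF1 letters, 12 ETS, 6 YY1 and 2 the E-box, next to 13, 13, 7 and 3 of the 34 that did not. The windows of Mrpl50 and Mrps10, called in opposite directions between the lines at day 5, hold none of the 4.

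Many members share a start region with a gene on the other strand. In 18 such divergent pairs in the table, 12 members fell between days in the null line, and of the partner genes 5 fell and 5 rose, beside 21.9% and 22.6% of all genes. For 13 further members whose starts overlap that of a partner, 5 members fell, 4 partners fell and 0 rose. Mrpl46 and Mrps11 are partners of each other and were counted both ways. Both genes of a divergent pair fell in 3 cases: Mrpl49 (-0.32 ± 0.07) with Fau (-0.30 ± 0.08), Mrpl40 (-0.34 ± 0.09) with Hira (-0.26 ± 0.10), and Mrps12 (-0.28 ± 0.08) with the mitochondrial serine tRNA synthetase Sars2 (-0.52 ± 0.11). Where starts overlap, both genes fell in 1 case, Mrpl18 (-0.37 ± 0.09) with Tcp1 (-0.38 ± 0.07). In 3 other pairs the member fell and the partner rose: Mrpl50 with Zfp189 (-0.23 and 0.49), Mrps34 with Eme2 (-0.40 and 0.64) and Mrps5 with Zfp661 (-0.39 and 0.45). The starts of Mrps12 and Sars2 are 172 bases apart, and both were lower in the null samples at day 5 as well (-0.26 ± 0.08 and -0.41 ± 0.11). Several of these calls between days in the null line depended on 1 library. Leaving out null day 3 replicate 2 (0.0659) or null day 5 replicate 2 (0.0530) ended that of Mrps12, and leaving out null day 3 replicate 2 (0.114) or null day 5 replicate 1 (0.0884) or 3 (0.0694) that of Mrpl50. Among the partners, Hira was not called in 9 of the 12 fits (0.0520 to 0.134), all except those without floxed day 3 replicate 3, floxed day 5 replicate 3 or null day 3 replicate 1, nor with upper-quartile scaling (0.0554), TMM scaling (0.0565) or edgeR (0.0628), and Fau was not called with the replicate block plus a GC and length correction (0.190). With scaling by total reads, Mrpl49, Mrpl40, Mrps12, Mrpl50, Mrps34, Fau and Hira were not called between days in the null line. Zfp189 was not called without null day 5 replicate 3 (0.0629), Zfp661 without null day 5 replicate 2 (0.0572), and Eme2 without null day 3 replicate 1 (0.129) or null day 5 replicate 2 (0.113) or 3 (0.0581). The calls of Sars2 and Mrps12 at day 5 were both lost without floxed day 5 replicate 3 (0.0689 and 0.0855), null day 5 replicate 1 (0.0705 and 0.0548) or null day 5 replicate 2 (0.0520 and 0.0945), and with scaling by total reads (0.0546 and 0.119).

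Whether counting used the strand is not given in the sources used here, so a member that overlaps another gene may hold reads of both. Exons of 20 members overlap a gene of the opposite strand in the table, up to 69.8% of exon bases for Mrps25 (with Nr2c2) and 63.4% for Mrps34 (with Mapk8ip3). Of the members called between lines, Mrpl24 (26.3%), Mrps11 (8.0%), Mrpl44 (7.7%) and Mrpl13 (4.2%) are among them. Called members that overlap a gene of the table on the same strand are Mrps24 (15.4%, with Urgcp), Mrps6 (10.4%, with Slc5a3) and Mrpl3 (3.7%, with Gm38077). Annotated genes without a row in the table overlap members too. On the same strand these include Nme3 with Mrps34 (37.0%), which was called between days, and Gm49711 with Mrps6 (19.9%). A strand setting would not separate these. Over the 53 members whose exons overlap no other gene of the table, 30 fell in the null and 14 in the floxed line, and at day 5 there were 4 higher and 5 lower in the null samples. In addition, 18 members, Mrpl22, Mrpl42 and Mrps10 among them, have an annotated pseudogene at least 95% identical over 200 or more bases, and their reads could be split with it.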

How the data were processed

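RNA of 12 embryoid body samples was measured, in 4 groups of line and day with 3 samples each, numbered 1 to 3 by the labels. The deposited table gives each gene a signal value in each sample, equal to the authors' read count over a size factor common to that sample's genes, as the values show. The build mm10, DESeq 1.16.0, HTSeq 0.6.0, TopHat2 2.0.10 and CASAVA 1.8.2 are named in the submitters' processing notes with no role given; per the labels, libraries were stranded total RNA with 8 cycles of PCR. The filter on rows and the strand setting are not given in the sources used here. Every value was a whole multiple of the value of 1 read in its column (100% of values, tolerance 0.01), so whole reads were recovered for the count tests.

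Symbols and positions came from GENCODE M21 (18199 of 18269 IDs matched). The main test was limma-trend (R 4.3.3, limma 3.58.1), fitting 4 group means to log2(value + 1) of the genes whose mean reached 10 in any group, with Benjamini-Hochberg adjustment over all of them, 8 residual and 5 prior degrees of freedom; alternatives used edgeR 4.0.16 and DESeq2 1.42.0 on recovered reads, other scalings (upper quartile, TMM, total reads), pseudocounts and filters, a replicate block, chromosome 11 centred or left out, and each sample left out. The fits were tested on simulated data. The members, gene lists and tests were chosen with earlier results of these data known. Named with values were the 6 members on chromosome 11 and 8 off it with the smallest p in each genotype comparison, every lower member called there, the 5 with the smallest p in each other comparison, the extremes per kilobase, and Mrpl12 with the stalk, Mrps12, Mrpl58, Mrps36 and the S18 genes; of each pathway list, at most 3 with the smallest p per genotype comparison, with Kat2a and Myc whatever their result. Members that rose between days, regulators, list genes in the day comparisons and neighbouring genes were named after their values were seen.

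Across genes, same-numbered floxed and null samples deviated from their group means with correlations of 0.270 to 0.372 (day 3) and 0.2475 to 0.424 (day 5), and the days with 0.123 to 0.282 in the null and 0.0814 to 0.214 in the floxed line. By a minimum of 0.1 in every pair, the numbers pair the samples in all but the floxed day comparison; the labels do not say what a number shares. Mrpl53 and the genes encoded in mitochondrial DNA were not analysed here, and 1 result for a pathway gene is not reported here. Promoter windows came from RefSeq (GRCm38.p6).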

Additional observations from a re-analysis of the deposited data

How the results depend on the processing

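Scaling by total reads was added after seeing the data. It moved the median of all genes by up to 0.14, in the null line between days, and there the median member change to -0.12, the members that fell to 16 and those that rose to 5; at day 5 it gave 9 higher and 3 lower members, at day 3 0 lower, and at day 5 0.02 for Mrpl58 and 0.02 for Mrps36. Taken over all 77 members, every other median change moved by less than the SD between replicates (0.0770) under all alternatives. This does not hold for the members on chromosome 11 alone. Centring that chromosome lowered their genotype changes by more, as for Mrpl38 at day 3 (from 0.60 to 0.24). Counts of called members moved more. At day 3, the 4 higher members became 8 with DESeq2, 8 with the replicate block and 9 with the block plus a GC and length correction. They became 0 with chromosome 11 centred, and also with it left out, there by construction since all 4 lie on it. The 1 lower member became 0 with chromosome 11 centred or left out. At day 5, the 5 higher became 3 with chromosome 11 centred and 2 with it left out, which removes the other 3 by construction. The 10 lower became 4 with upper-quartile scaling, 6 with edgeR and 17 with the block plus GC and length correction. Between days, the members that rose became 8 (floxed) and 3 (null) with that correction, and 1 in the floxed line with chromosome 11 left out, by construction.

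With 1 library left out, the counts ranged from 2 to 6 higher and 0 to 1 lower at day 3, from 2 to 7 higher and 3 to 10 lower at day 5, from 13 to 23 falling in the floxed line, and from 0 to 1 rising and 27 to 40 falling in the null line. At day 3 the 4 higher members became 2 without floxed day 3 replicate 1 or 3 or null day 3 replicate 2 or 3. Apart from fewer samples and genes, the cause of these moves was not tested.

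With the replicate block, the counts were 8 higher and 1 lower at day 3, 7 and 15 at day 5, 3 and 25 between days in the floxed line and 0 and 44 in the null line; the interaction had 0 called members with and without it.

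The alternatives for pathway and neighbouring genes were chosen after seeing the data. Some changes reversed sign. With chromosome 11 centred, the day 3 changes were -0.05 for Mrpl10, -0.01 for Mrps7, -0.31 for Mrpl12 and -0.16 for Mrpl58, and the day 5 changes -0.04 for Mrpl45, -0.04 for Mrpl10, -0.03 for Mrpl27, -0.03 for Mrpl55, -0.09 for Mrps24, -0.31 for Mrpl12 and -0.04 for Taco1. With 1 library left out, Mrpl12 ranged from -0.13 to 0.20 at day 3 and from -0.06 to 0.11 at day 5, Mrps36 from -0.14 to 0.03 and from -0.16 to 0.03, and Mrpl58 at day 5 from -0.11 to 0.03.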
